A study of Rattus norvegicus with 6 samples.

Results

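The conjugating enzymes described here are 10 genes of the UDP-glucuronosyltransferase (Ugt) and cytosolic sulfotransferase (Sult) families, measured in the renal cortex of rats after 4 weeks of carbon tetrachloride. They are Ugt1a1, Ugt1a6, Ugt1a7c, Ugt8, Sult1a1, Sult1b1, Sult1c2, Sult1c3, Sult1d1 and Sult2b1, chosen by name, each represented by its brightest probe over the 6 arrays. Of the 10 genes, 9 had a probe and 8 were bright enough to be tested, among 31193 tested transcripts and 45433 genes or unmatched accessions with a probe. No probe was matched to Ugt1a7c, and neither probe of Sult1d1 passed the filter on dim signal.

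The treated animals were 3 male Sprague-Dawley (Crl:CD(SD)) rats dosed with carbon tetrachloride at 100 mg/kg/day for 4 weeks. The controls were 3 male rats of the same strain given corn oil for 4 weeks, and all rats were 5 weeks old when bought. Each rat gave 1 single-colour Agilent array of renal cortex RNA, and the 3 rats of a group are biological replicates by the design text, so that p-values measure the spread between rats. That design text names benzyl acetate as the treatment, against carbon tetrachloride in the title and in the labels of the treated samples, and the labels are followed here.

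Glucuronosyltransferases sit in the endoplasmic reticulum and join glucuronic acid from UDP-glucuronic acid to lipophilic compounds such as bilirubin, phenols, steroids and drugs. Cytosolic sulfotransferases move a sulfate group from the activated donor PAPS to phenols, catecholamines, steroids and hydroxyarylamines. Both reactions make water-soluble conjugates that proximal tubule cells can secrete into urine, and for some arylamines sulfation instead makes a reactive product. The genes of the Ugt1a locus have first exons of their own and splice to the same last exons, so a probe in the common part reads all of them together.

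The share of probes well above background was 68.5% to 72.1% per array, of 61537. Arrays correlated at 0.9907 to 0.9937 across groups, at 0.9914 to 0.9928 within carbon tetrachloride and at 0.9917 to 0.9932 within corn oil. Carbon tetrachloride replicate 3 lay alone on a second slide with its own scan, and the other 5 arrays shared 1 slide and scan. Proximal tubule markers were well above background on all 6 arrays for 10 of 10 genes. Of these, 7 were higher and 3 lower in carbon tetrachloride rats, with a median log2 difference of 0.05 and 0 called. The first 2 listed, the endocytic receptor genes Lrp2 and Cubn, had 0.09 ± 0.09 and 0.05 ± 0.07 (log2, SE, n = 3 per group). Leukocyte markers were lower for 7 of 7 genes, with a median log2 difference of -0.28, and their mean level lay between 0.48 and 0.61 below the corn oil mean on the treated arrays, against 0.29 below to 0.20 above it on the control arrays. Their summed level ran from 3.53 to 3.95 in carbon tetrachloride rats and from 3.72 to 5.01 in corn oil rats, in units of each array's 75th percentile, and 0 of the 7 passed the adjusted threshold. The T cell genes Cd3e (-1.11 ± 0.29), Cd3g (-1.01 ± 0.15) and Cd8b (-0.98 ± 0.09) had the largest differences of the 7, with no overlap between the groups and limma adjusted p of 0.749, 0.627 and 0.187. Cd3e passed the filter on dim signal only through the corn oil rats, being well above background on 2 of 3 treated arrays. The macrophage genes Cd68 and Csf1r had -0.11 ± 0.20 and -0.0053 ± 0.11. The part of that shift in the values given next was not tested. In bulk cortex, fewer cells of a type and less RNA per cell cannot be told apart.

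None of the 8 tested conjugating enzymes differed between carbon tetrachloride and corn oil rats in limma at an adjusted p of 0.05, where 1 of 31193 transcripts (0.00321%) passed. At an unadjusted p under 0.05 the count was also 0 of 8, against 6.3% of all transcripts. For 0 of 8 genes did the treated and control rats separate without overlap, which happened for 12.8% of all transcripts, 7.54% with the treated rats higher and 5.27% with them lower. The log2 differences were positive for Ugt1a1, Ugt8, Sult1a1, Sult1c3 and Sult2b1 and negative for Ugt1a6, Sult1b1 and Sult1c2, with a median of 0.09 against 0.0077 over all transcripts. The sign of that median rested on single arrays, since it was -0.05 without carbon tetrachloride replicate 2 and -0.01 without corn oil replicate 2, and it was 0.02 without corn oil replicate 1. Levels are given below as log2 of the background-subtracted signal minus that array's 75th percentile, so that a level of 0 equals that percentile. Levels of different probes are not read as relative amounts of their transcripts. Summed marker levels and the naming of a brightest marker describe signal alone.

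**Figure D1:**
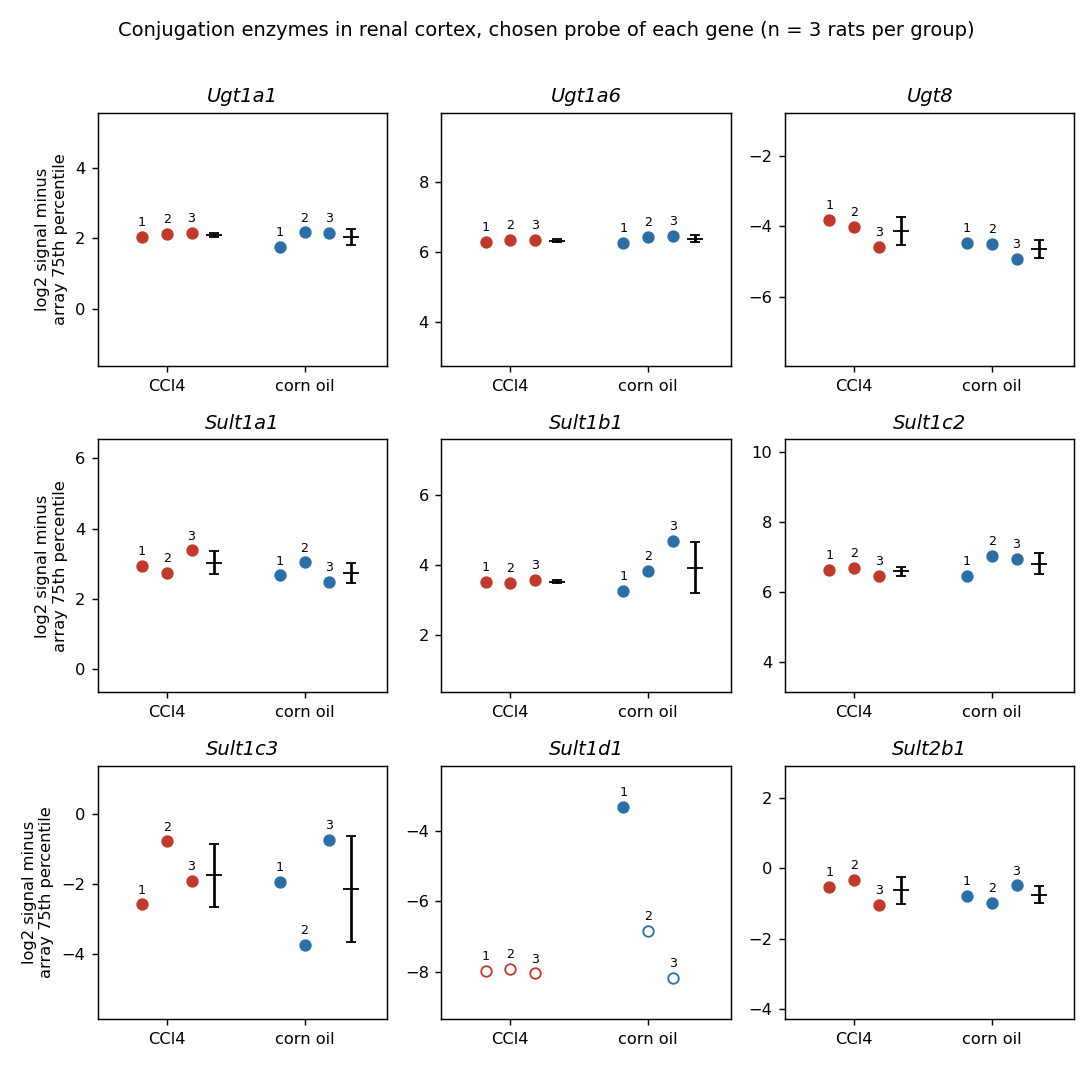
Log2 level (signal minus the array's 75th percentile) of the chosen probe of the 9 genes with a probe, carbon tetrachloride (CCl4) left and corn oil right. Points are single rats, numbered by replicate, filled where the probe was well above background, and bars are mean and SD (n = 3), left out for Sult1d1. All panels span the same height: the rats lie close together for Ugt1a6 and far apart for Sult1c3, and the groups overlap in every panel that was tested.

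**Figure D2:**
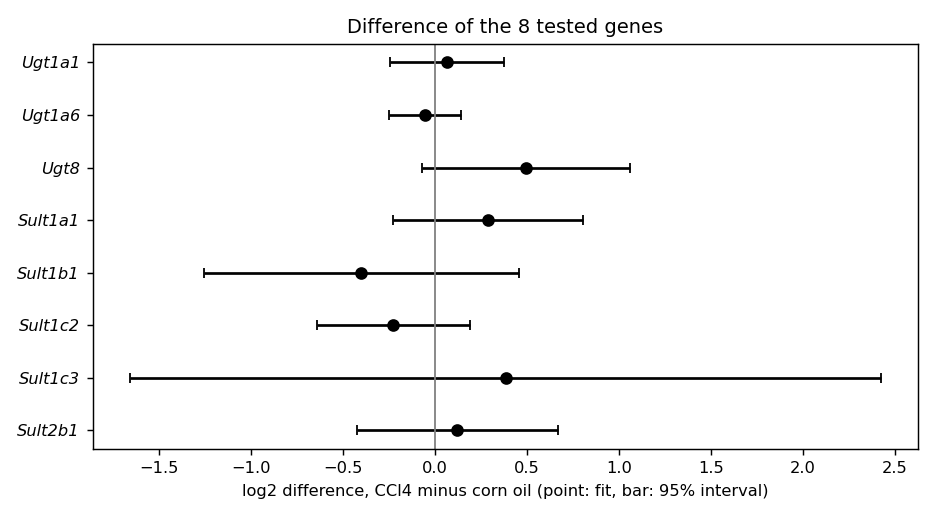
Log2 difference between carbon tetrachloride and corn oil for the 8 tested genes, with the 95% interval of the limma fit. Every interval includes 0, from the narrow one of Ugt1a6 (-0.25 to 0.14) to the wide one of Sult1c3 (-1.66 to 2.42).

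The Ugt1a genes came closest to equal levels. Ugt1a6, which conjugates small planar phenols, had levels of 6.29, 6.36 and 6.35 in carbon tetrachloride rats, against 6.26, 6.44 and 6.46 in corn oil rats. The treated values lay inside the control range, and the whole spread over 6 rats was 1.15-fold. The difference was -0.05 ± 0.08 (log2, SE), with a 95% interval of 0.84-fold to 1.1-fold and a limma adjusted p of 0.909. A change of 2-fold in either direction thus lies outside the interval of the chosen probe. The other 2 probes of Ugt1a6 had positive differences of 0.10 and 0.19, so the sign of the small difference depends on the probe, and the mean of the 3 probes was 0.08.

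Ugt1a1, the bilirubin-conjugating enzyme, had 1 probe, with levels of 2.03, 2.12 and 2.15 in carbon tetrachloride rats, against 1.77, 2.17 and 2.16 in corn oil rats. Corn oil replicate 1 was the low value, and the other 5 rats lay close together. The difference was 0.07 ± 0.13, with an interval of 0.84-fold to 1.3-fold and an adjusted p of 0.933 in limma. Without corn oil replicate 1 the difference was -0.07. The same control rat was the lowest of all 6 for the chosen probe and both other probes of Ugt1a6. The files give no probe sequence or position, so whether these probes lie in the first exons or in the common last exons is not known here.

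The upstream regions of Ugt1a1 and Ugt1a6 are shown because each lies before that gene's own first exon. They are the 250 bases before the start of the gene in RefSeq on the assembly GRCr8, Ugt1a1 at chr9:96248893-96249142 and Ugt1a6 at chr9:96194768-96195017, both on the plus strand. Capitals mark matches on either strand to 5 motifs: GCGTG (the core of the xenobiotic response element bound by the aryl hydrocarbon receptor), TGACNNNGC (the core of the antioxidant response element), the letters GTTAAT, the letters AGGTCA (a half-site of many nuclear receptors) and AGAACA (a half-site of the androgen and glucocorticoid receptors).
Ugt1a1: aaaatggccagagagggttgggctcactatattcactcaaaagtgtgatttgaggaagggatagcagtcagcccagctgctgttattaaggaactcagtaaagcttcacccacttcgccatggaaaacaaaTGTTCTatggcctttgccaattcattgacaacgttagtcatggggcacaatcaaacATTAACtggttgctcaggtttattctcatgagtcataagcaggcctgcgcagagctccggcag
Ugt1a6: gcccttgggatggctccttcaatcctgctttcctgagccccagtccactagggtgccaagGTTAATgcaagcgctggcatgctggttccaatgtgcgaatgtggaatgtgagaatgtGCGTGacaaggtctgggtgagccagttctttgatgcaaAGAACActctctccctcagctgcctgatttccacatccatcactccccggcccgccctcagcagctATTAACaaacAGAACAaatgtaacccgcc
Ugt1a6 holds GTTAAT at bases -190 to -185 and again, on the other strand, at -29 to -24, counted back from the start, GCGTG at -133 to -129 and AGAACA at -95 to -90 and -19 to -14. Ugt1a1 holds GTTAAT on the minus strand at -63 to -58 and AGAACA on the minus strand at -119 to -114. No 2 of these matches overlap. Of 33469 such upstream regions, 6.45% hold GTTAAT, 25.9% hold GCGTG and 17.5% hold AGAACA. The other 2 motifs, in 10.1% (TGACNNNGC) and 14.1% (AGGTCA) of the regions, have no match in the upstream regions of any of the 10 genes. A match describes the letters and not a bound factor.

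Ugt8 had the smallest p of the 8 genes. It encodes ceramide galactosyltransferase, which uses UDP-galactose and makes galactosylceramide, the precursor of the sulfatides of myelin and of kidney tubules, and so stands apart from the detoxifying Ugt1a enzymes. Its levels were -3.82, -4.02 and -4.58 in carbon tetrachloride rats, against -4.47, -4.51 and -4.93 in corn oil rats. Carbon tetrachloride replicates 1 and 2 lay above all controls, and replicate 3, on the second slide, lay within the control range. The difference was 0.50 ± 0.23, or 1.41-fold with an interval of 0.953-fold to 2.09-fold, with a p of 0.0754 and an adjusted p of 0.798 in limma. Within the slide that held both groups it was 0.72, with an adjusted p of 0.689 in limma. With a different background correction (normexp) it was 0.25 or 0.27, according to the normalization. The second probe of Ugt8, well above background on 2 of 3 treated and 1 of 3 control arrays, had a difference of -0.14, so the higher level rests on 1 probe.

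The genes around Ugt8 did not pass the test either. Of 12 genes of galactosylceramide and sulfatide metabolism, 7 were higher and 5 lower, with a median of 0.02, and 0 were called. The median was -0.01 without corn oil replicate 1 and -0.04 with normexp. Gal3st1, the sulfotransferase that turns galactosylceramide into sulfatide, had a log2 difference of -0.12 ± 0.12. Degs1, which puts the double bond into ceramide, had levels of 5.40, 5.48 and 6.11 in treated rats, against 5.27, 5.29 and 5.23 in control rats, a difference of 0.40 ± 0.19 with a limma adjusted p of 0.798. Its groups did not overlap, and its highest rat by far was carbon tetrachloride replicate 3 (6.11), which lay alone on the second slide. Gla, a lysosomal galactosidase, had -0.15 ± 0.08. Markers of myelinating glia, which also express Ugt8, were higher for 5 of 6 genes, with a median of 0.12. Their summed level ran from 1.33 to 1.38 in carbon tetrachloride rats and from 1.25 to 1.3 in corn oil rats, in units of each array's 75th percentile. The part of these cells in the Ugt8 value was not tested.

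Among the sulfotransferases, Sult1a1, the main phenol-sulfating enzyme, had levels of 2.95, 2.74 and 3.38 in carbon tetrachloride rats, against 2.67, 3.04 and 2.50 in corn oil rats. Carbon tetrachloride replicate 3 was the highest, and the other treated rats lay within the control range. The difference was 0.29 ± 0.21, with an interval of 0.853-fold to 1.75-fold and an adjusted p of 0.836 in limma. Without replicate 3, and so within the shared slide, it was 0.11. A second probe followed the first over the 6 arrays (Pearson r = 0.957) and had a difference of 0.46.

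Sult1c2, a sulfotransferase of kidney and stomach, had levels of 6.62, 6.69 and 6.45 in carbon tetrachloride rats, against 6.46, 7.04 and 6.95 in corn oil rats. Control replicates 2 and 3 were the highest and control replicate 1 lay among the treated rats. The difference was -0.23 ± 0.17 (adjusted p = 0.838 in limma), with an interval of 0.64-fold to 1.14-fold. All 3 probes had negative differences, between -0.29 and -0.16. Without corn oil replicate 1 the difference was -0.41, and without corn oil replicate 2 it was -0.12. The genome holds close copies of this gene, and the copy Sult1c2a had -0.03 ± 0.12. How far the probes of the copies bind each other's transcripts was not tested.

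Sult1b1, which sulfates thyroid hormones and small phenols, separated the control rats more than it separated the groups. Its levels were 3.53, 3.49 and 3.57 in carbon tetrachloride rats, against 3.26, 3.84 and 4.70 in corn oil rats. The treated rats lay within 0.08 of each other, while the controls spanned 1.44, a 2.71-fold range with treated values inside it. The difference was -0.40 ± 0.35, with an interval of 0.419-fold to 1.37-fold and an adjusted p of 0.853 in limma. Without corn oil replicate 3, the highest rat, it was -0.02, and without corn oil replicate 1 it was -0.74. All 3 probes were highest in that rat and lowest in corn oil replicate 1, with Pearson r between 0.989 and 0.998 over the 6 arrays, which share their RNA and slides.

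**Figure D3:**
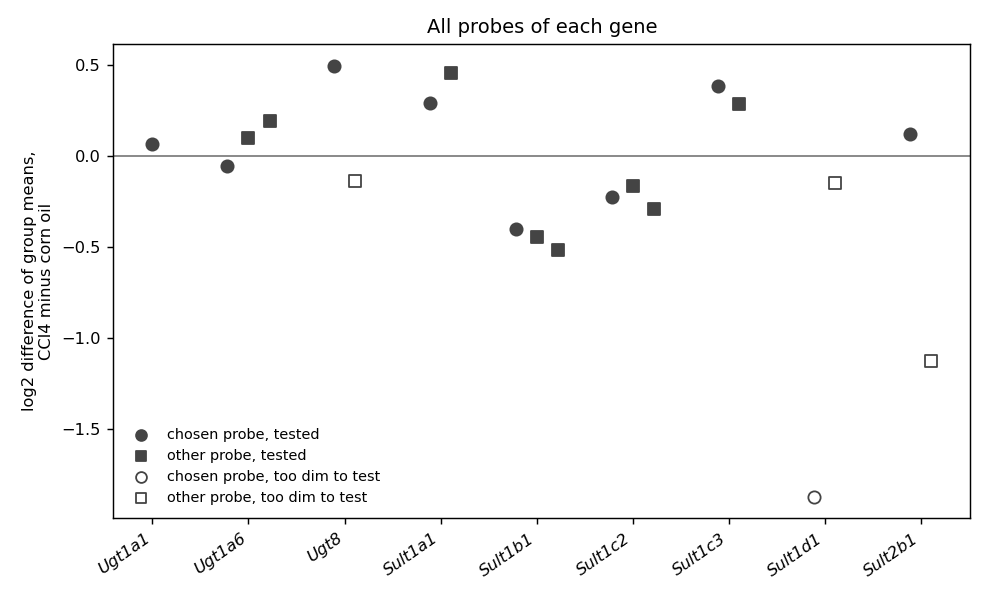
Log2 difference of group means (carbon tetrachloride minus corn oil) for every probe of the 9 genes. Circles are the chosen probes, squares the others, and open symbols were too dim to be tested. Probes agree in sign for Sult1a1, Sult1b1, Sult1c2 and Sult1c3, and differ in sign for Ugt1a6, Ugt8 and Sult2b1. Both probes of Sult1d1 lie below 0, but both were too dim to be tested.

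Sult1c3, which sulfates N-hydroxyarylamines in rat liver and is also named HAST-I, varied most from rat to rat among the 8 tested genes. Its levels were -2.58, -0.79 and -1.90 in carbon tetrachloride rats, against -1.94, -3.73 and -0.75 in corn oil rats. Carbon tetrachloride replicate 2 and corn oil replicate 3 were high and corn oil replicate 2 was low, a 7.85-fold range that ran through both groups. The pooled SD within groups was 1.24, larger than for 99.5% of tested transcripts, whose median was 0.142, and larger than for 99% of the 1000 transcripts nearest in level. The second probe gave the same order at the ends of the range, with a 9.15-fold range and a Pearson r of 0.996 with the first. Against this spread the difference of 0.38 ± 0.83 (adjusted p = 0.944 in limma) leaves an interval of 0.317-fold to 5.36-fold. It became -0.41 when corn oil replicate 2 was left out, 1.08 when corn oil replicate 3 was left out and -0.10 when carbon tetrachloride replicate 2 was left out.

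The upstream regions of Sult1c3 and Sult1b1 are shown because these 2 genes had the widest spread between rats among the 8 tested. They are again the 250 bases before the RefSeq start on GRCr8, Sult1c3 at chr9:7594257-7594506 on the minus strand and Sult1b1 at chr14:20771667-20771916 on the plus strand, with the same 5 motifs in capitals.
Sult1c3: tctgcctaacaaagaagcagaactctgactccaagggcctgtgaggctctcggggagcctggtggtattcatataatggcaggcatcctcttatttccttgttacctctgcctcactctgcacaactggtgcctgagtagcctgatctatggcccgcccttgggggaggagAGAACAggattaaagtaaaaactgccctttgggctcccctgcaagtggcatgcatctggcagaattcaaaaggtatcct
Sult1b1: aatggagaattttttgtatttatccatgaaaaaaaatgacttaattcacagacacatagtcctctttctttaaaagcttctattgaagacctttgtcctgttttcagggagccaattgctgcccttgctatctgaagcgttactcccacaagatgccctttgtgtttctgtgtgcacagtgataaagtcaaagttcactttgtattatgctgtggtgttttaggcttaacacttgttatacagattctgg
Sult1c3 holds 1 match, AGAACA at bases -79 to -74. Sult1b1 holds 0 of the 5 motifs in this window, which says only that these letters are absent from it. Over the 10 genes AGAACA was found for 6, GCGTG for 4 and GTTAAT for 2.

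A few genes of the fixed lists, picked here after their values were seen, were lowest in the same control rat as Sult1c3, as were 18.7% of 31167 tested transcripts with a value in every rat. Cyp2c11, a male-specific cytochrome P450 best known from rat liver, had levels of 0.64, 1.57 and -1.13 in carbon tetrachloride rats, against 2.15, -2.09 and 3.94 in corn oil rats. Its highest rats were corn oil replicates 3 and 1. The organic anion transporter genes Slco1a1 and Slco1a6 and the amino acid transporter gene Slc7a13 of the straight proximal tubule were also lowest in corn oil replicate 2, and, like Sult1c3, highest in corn oil replicate 3 and carbon tetrachloride replicate 2. Slco1a1, for example, had 3.13, 3.44 and 2.88 in carbon tetrachloride rats, against 2.75, 2.29 and 3.52 in corn oil rats. Of the same transcripts 2.18% had both features, which Cyp2c11 did not. Of the 8 liver markers, Cyp2c11 among them, 3 (Ttr, Serpina1 and Tat) were well above background on no array, and the albumin gene Alb was so on 2 treated arrays and 0 control arrays. The other 4 were so on all 6 arrays, among them the plasma protein genes Apoa1, at a log2 difference of 0.80 ± 0.24, and Hpx, at 0.60 ± 0.21, both without overlap between the groups and with limma adjusted p of 0.768 and 0.774. Fgb had -0.14 ± 0.16, and Cyp2c11 had -0.98 ± 1.61. The summed unlogged level of the 8 ran from 0.986 to 3.52 in carbon tetrachloride rats and from 0.738 to 15.9 in corn oil rats. Cyp2c11 was the brightest of the 8 in every rat but corn oil replicate 2, where Fgb was brighter. Over the 6 rats Cyp2c11 ran from -2.09 to 3.94, and Fgb only from -1.30 to -0.74. The range of the sum thus mainly repeats Cyp2c11 and does not describe the 8 genes together. The part of these genes in the Sult1c3 values was not tested.

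**Figure D4:**
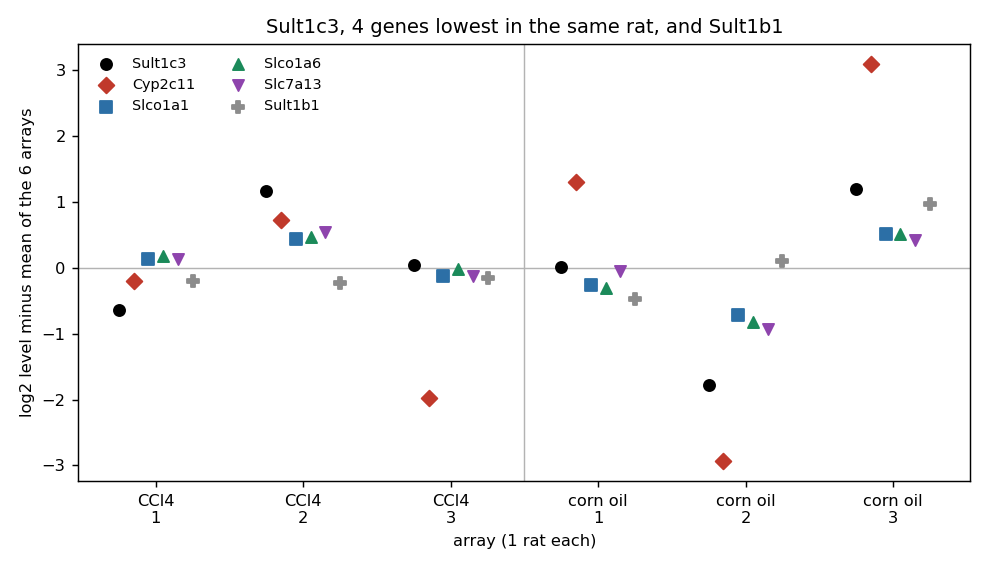
Log2 level of Sult1c3, of 4 genes that were lowest in the same rat, and of Sult1b1, each minus its own mean over the 6 arrays. Each column is 1 rat, carbon tetrachloride (CCl4) left and corn oil right. Sult1c3, Cyp2c11, Slco1a1, Slco1a6 and Slc7a13 are all lowest in corn oil replicate 2, whereas Sult1b1 is lowest in corn oil replicate 1.

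Sult1d1, which sulfates dopamine and other catecholamines in rodents, was well above background in 1 rat. The chosen probe had levels of -7.99, -7.92 and -8.05 in carbon tetrachloride rats, against -3.30, -6.85 and -8.19 in corn oil rats. That rat was corn oil replicate 1. The other probe of the gene was not above background in any rat and stood at -7.85 in that control rat, so the 2 probes do not share the high value. The chosen probe had a difference of -1.87 ± 1.24 when no filter was set (adjusted p = 0.957 in limma), with the signal of the other 5 rats not well above background.

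Sult2b1, which sulfates cholesterol and hydroxysteroids, had levels of -0.52, -0.32 and -1.05 in carbon tetrachloride rats, against -0.78, -0.98 and -0.49 in corn oil rats. The treated range enclosed the control range. The difference was 0.12 ± 0.22 (adjusted p = 0.931 in limma), with an interval of 0.745-fold to 1.59-fold. Within the shared slide it was 0.33, and without carbon tetrachloride replicate 2 it was -0.03. The second probe was well above background on 0 treated arrays and 1 control array and had a difference of -1.13.

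Several symbols of the rest of both families had no matched probe, or only probes too dim to test. Of 19 other Ugt symbols 11 had a probe and 6 were tested, with 4 higher, 2 lower, 0 called and a median log2 difference of 0.04, which was -0.05 without corn oil replicate 3 and 0.13 without corn oil replicate 2. Ugt1a9, a further gene of the shared locus, had 0.22 ± 0.15, Ugt2b35 had 0.11 ± 0.16, and Ugt2b7 had -0.51 ± 0.49. Corn oil replicate 3 held the highest Ugt2b7 level, at 0.46, with the other 5 rats between -1.58 and -0.90. Of 10 other sulfotransferases, 7 had a probe and 2 were tested, both lower. These were Sult1c2a, given above, and Sult4a1, best known from brain, at -0.43 ± 0.44. Over the whole array, 31193 of 45433 genes or unmatched accessions with a probe were tested. In corn oil rats the mean level was above 0 for Sult1c2a (7.16), Ugt2b35 (5.22), Ugt1a2 (4.57), Ugt2b37 (3.57) and Ugt2b15 (1.16). It was below 0 for Ugt2b7 (-0.63), Sult4a1 (-2.56) and Ugt1a9 (-3.18). The hydroxysteroid enzymes Sult2a1, Sult2a2 and Sult2a6 and the estrogen sulfotransferase Sult1e1 were well above background in 0 of the 6 rats.

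Genes that feed, undo or control conjugation were likewise not called. For the supply of UDP-glucuronic acid, 3 of 8 genes were higher and 5 lower, with a median of -0.02. Ugp2, which makes UDP-glucose, had -0.09 ± 0.07 and Ugdh, which oxidises it to UDP-glucuronic acid, -0.05 ± 0.10. The nucleotide sugar transporter genes Slc35d1 and Slc35d2 had 0.16 ± 0.11 and -0.23 ± 0.16, and the phosphoglucomutase gene Pgm1 had 0.11 ± 0.08. These differences are small next to those of Sult1c3, and their standard errors are small too.

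For sulfate activation and transport, 6 of 9 tested genes were higher and 3 lower, with a median of 0.03. Papss2, a synthase of the sulfate donor PAPS, had 0.09 ± 0.15, and its relative Papss1 had no probe matched. Slc13a1, the sodium-sulfate cotransporter of the brush border, had -0.07 ± 0.11, and Bpnt2, a phosphatase that clears the spent donor, -0.08 ± 0.09. For conjugate hydrolysis, 3 of 7 genes were higher and 4 lower, in a list that includes the sulfatase-modifying factor genes Sumf1 and Sumf2. Sts, the steroid sulfatase, had levels of 2.92, 3.44 and 3.10 in carbon tetrachloride rats, against 2.77, 2.81 and 2.90 in corn oil rats. Its groups did not overlap, and the difference was 0.33 ± 0.14 with a limma adjusted p of 0.795. Arsa, which desulfates sulfatide, had 0.11 ± 0.07 with a limma adjusted p of 0.834. Its groups missed overlap only narrowly, with 1.150 in the lowest treated rat and 1.148 in the highest control rat. Gusb, the lysosomal glucuronidase, had -0.13 ± 0.09.

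Among 16 transcription factors and partners known to act on these enzymes, 10 were higher and 6 lower, with a median of 0.09. That median was -0.03 without corn oil replicate 3, and 0.04 when replicate 1 of either group was left out. Rxra, the partner of many nuclear receptors, had levels of -2.42, -2.35 and -2.43 in carbon tetrachloride rats, against -2.54, -2.75 and -2.66 in corn oil rats. Every treated rat lay above every control, with a difference of 0.25 ± 0.08 and a limma adjusted p of 0.768. Nr3c1, the glucocorticoid receptor, had -0.12 ± 0.06, with every treated rat below every control and a limma adjusted p of 0.82. The sensors of foreign compounds showed no separation: Ahr had 0.34 ± 0.20, Nr1i2, the pregnane X receptor, -0.03 ± 0.09, and Nfe2l2, which encodes NRF2, -0.03 ± 0.15.

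For bilirubin, the substrate of Ugt1a1, 7 of 8 genes of its formation and transport were higher, 0 were called, and the median was 0.13. Without corn oil replicate 2, in which Slco1a1 and Slco1a6 of this list were lowest, the median was 0.017. Blvra, a biliverdin reductase, had levels of 1.88, 2.07 and 1.89 in carbon tetrachloride rats, against 1.39, 1.20 and 1.96 in corn oil rats. Control replicate 3 lay among the treated rats, and the difference was 0.43 ± 0.20 with a limma adjusted p of 0.798. Blvrb, the second reductase, had 0.16 ± 0.09, and the efflux pump gene Abcc3 had -0.14 ± 0.10.

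**Figure D5:**
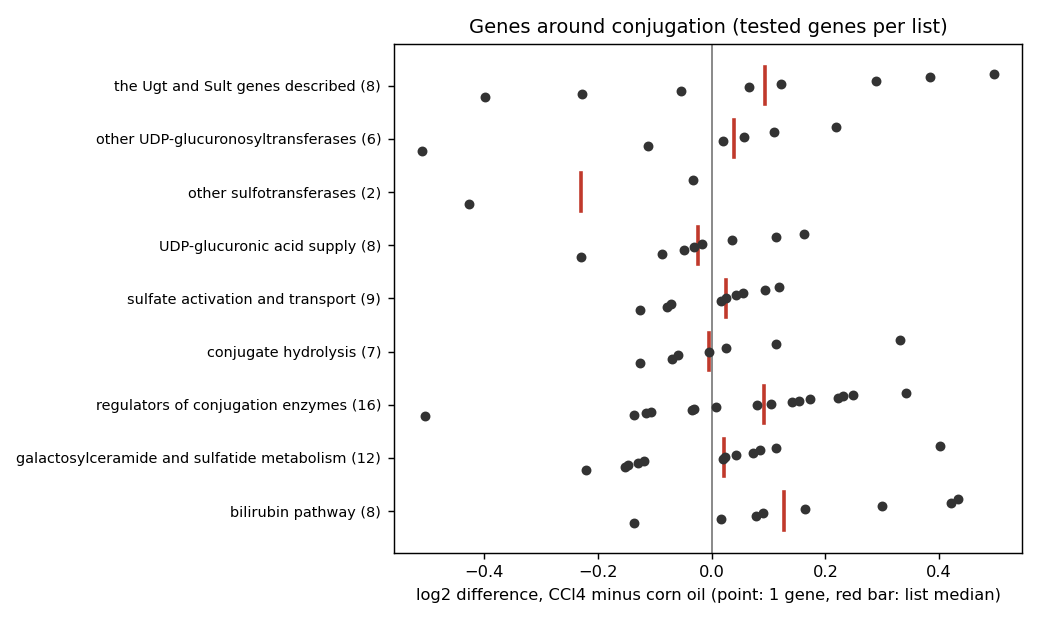
Log2 difference (carbon tetrachloride minus corn oil) of every tested gene of the lists, 1 point per gene, with the list median in red. The medians lie between -0.23, for 2 other sulfotransferases, and 0.13, for the bilirubin pathway, and 0 genes passed the adjusted threshold.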

How the data were processed

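Arrays of 6 rats, 3 per group by the treatment label, were read from the scanner files. These hold the spot intensity deposited by the authors, extracted with Agilent Feature Extraction 10.7.1.1 per the file headers (10.7 per the submitters' processing notes). The deposited value table is the same intensity divided by 1 factor per array, from 1015 to 1092, near that array's 75th percentile. Its columns have medians of 0.116, 0.115 and 0.111 for carbon tetrachloride and 0.118, 0.111 and 0.114 for corn oil, so its scale, centring and direction are known, and 0 of its columns belong to other samples.

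The processed signal was scaled to the 75th percentile of its array and taken as log2. The 1439 control spots and outlier-flagged spots (0 to 25 per array) were left out. No spot of the genes described was saturated. A probe was kept where every array of 1 group or both measured it well above background (42400 probes). The 28206 probes (45.8%) with a RefSeq accession in the GRCr8 gene table carry its symbol, and 1 probe stands for a gene, that of the highest mean. Upstream sequences and their coordinates are those of the RefSeq table of GRCr8, in which all 10 genes were found.

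The test was limma 3.58.1 (R 4.3.3; lmFit and eBayes, two-sided, carbon tetrachloride minus corn oil), with Benjamini-Hochberg adjustment over all transcripts and 95% intervals from the moderated fit. The number of arrays limits the precision. The fit was tested on simulated data. An exact permutation test of 3 against 3 cannot go below 0.1 and was not used. The genes and lists were chosen with earlier results of these data known. The rule for named genes was all members, of each other list those past the threshold and the 3 of smallest p plus Papss1, Papss2, Ugp2, Ugdh, Ahr, Nr1i2 and Nfe2l2, and up to 2 markers of a cell type. Gal3st1, Cyp2c11, Slco1a1, Slco1a6, Slc7a13, the leukocyte and liver markers and the family members below background were named after their values were seen. Ugt1a2, Ugt2b15, Ugt2b37, Sumf1 and Sumf2 were named then too. A result for 1 gene that the rule names is not reported here. The normexp alternative used the median spot and background signals, since the files hold no mean spot signal.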

Additional observations from a re-analysis of the deposited data

How the results depend on the processing

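Under 19 alternatives (normexp, quantile or median scaling, the authors' value table, 2 filters on dim probes, 2 ways to combine probes, an intensity trend, blocks, 1 slide alone, and each array left out) the count of conjugating enzymes past the adjusted threshold was 0 every time, with adjusted p from 0.689 to 0.999 for single genes. Of 152 such single-gene values 147 kept their sign, but many of them could not change it. Both filters, the brightest probe chosen before the filter, the intensity trend and the replicate block left every difference as in the main fit. The authors' value table is the same signal rescaled. The count of kept signs is therefore no measure of robustness. Ugt1a6 turned to 0.079 with the mean of its probes. With single arrays left out, log2 differences ran from -0.066 to 0.134 for Ugt1a1, from -0.41 to 1.08 for Sult1c3 and from -0.034 to 0.333 for Sult2b1. Ugt8, Sult1a1, Sult1b1 and Sult1c2 kept their sign in all 19, though an unadjusted p under 0.05 was reached by Ugt8 in 7 settings and by Sult1b1 and Sult1c2 without corn oil replicate 1. The single transcript called over the whole array was lost (0 called) under normexp (both scalings), under no filter or the filter on all 6 arrays, under trend and robust fitting, and under the slide block or slide 1 alone, and the count ran from 0 to 2 without single arrays, the cause of which was not tested. With the replicate block it was 0 as well, and 0 conjugating enzymes were called. Same-numbered samples of the 2 groups are different rats. Their deviations correlated at -0.02, -0.10 and -0.08, and no array correlated best with its own number. With 3 rats per group, these correlations cannot tell whether a number marks a shared day or preparation. Leaving out carbon tetrachloride replicate 3 gives the same fit as the slide block or slide 1 alone, so 1 fit enters the counts over the 19 alternatives 3 times. Of 171 list medians 161 moved by less than the spread between replicates. With 3 rats per group, the intervals of Ugt8, Sult1b1 and Sult1c3 include 2-fold changes, and for Sult1d1 the signal over background limits what can be said.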

Other observations

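Some other conjugating enzymes known from liver were not well above background on any array. The brightest probe of Ugt2b1, Sult1e1 and Sult2a1 was at most -7.72 in all 6 rats, and Sult2a2 ranged from -7.55 to -6.06 in carbon tetrachloride rats and from -7.88 to -6.52 in corn oil rats, well above background in 0 of them. The brain-type gene Sult4a1, by contrast, was well above background in all 6 rats, at -3.23, -2.64 and -3.10 in carbon tetrachloride rats, against -2.48, -3.46 and -1.75 in corn oil rats. Its lowest rat was corn oil replicate 2, as for Sult1c3 and for 18.7% of tested transcripts. Its highest was corn oil replicate 3, also as for Sult1c3, and the share of transcripts with both features was not counted. The next highest rat differed, corn oil replicate 1 (-2.48) for Sult4a1 and carbon tetrachloride replicate 2 (-0.79) for Sult1c3.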
